A study of Mus musculus with 8 samples.

Results

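Notch receptors, their ligands and their target genes were followed in mouse tongue epithelium after doxycycline was given to animals carrying a doxycycline-controlled Bmi-1 transgene. The members are 10 genes listed by name for their place in the pathway: the receptors Notch1, Notch2 and Notch3, the ligands Jag1, Jag2 and Dll1, the receptor-modifying enzyme Lfng, the nuclear coactivator Maml2, and the target transcription factors Hes1 and Hey1. All 10 had a value among the 15540 genes of the authors' deposited comparison table. The KrTB+DOX group held 4 libraries from C57BL/6 mice with the transgenes K14-rtTA and TRE-FLBmi-1, whose water contained doxycycline at 2 mg/mL, and the KrTB group held 4 libraries from mice of the same genotype on plain water. The transactivator is driven by the keratin 14 promoter, which is active in basal keratinocytes, and the tissue sequenced was labelled tongue epithelia. Both groups carry the transgenes, so an effect of doxycycline alone and an effect of the Bmi-1 construct cannot be told apart. No source used here gives the age or sex of the mice.

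Notch signalling passes between touching cells. A ligand of the Jagged or Delta-like family on the sending cell binds a Notch receptor on its neighbour, the receptor is cut at the membrane, and its freed intracellular part enters the nucleus, where with RBPJ and a Mastermind-like coactivator it switches on genes such as those of the Hes and Hey repressors. In stratified epithelia of the mouse this pathway is known for driving cells out of the basal layer into differentiation, with Notch1 as the best studied receptor in skin. Bmi1 belongs to Polycomb repressive complex 1, a silencer of developmental genes, many of which have CpG-rich promoters.

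The promoter windows of the members are described by their bases only, since no binding to them was measured. RefSeq promoter windows on GRCm38.p6, running from 250 bases before the transcription start to 50 bases from it, were matched for 8 of the 10 members, with 2 windows each for Dll1 and Maml2 and so 10 windows in all. Hes1 and Hey1 had no entry. The Jag2 window is shown for its GC content, Jag1 as the other Jagged ligand with a lower one, and Lfng because it holds the letters bound by RBPJ. Capitals mark TGGGAA, the core of the RBPJ motif, or its reverse complement TTCCCA, and each line runs 5′ to 3′ on the strand of the gene. The Jag2 window lies at chr12:112929446-112929745 (minus strand), the Jag1 window at chr2:137116471-137116770 (minus strand) and the Lfng window at chr5:140607091-140607390 (plus strand).
Jag2: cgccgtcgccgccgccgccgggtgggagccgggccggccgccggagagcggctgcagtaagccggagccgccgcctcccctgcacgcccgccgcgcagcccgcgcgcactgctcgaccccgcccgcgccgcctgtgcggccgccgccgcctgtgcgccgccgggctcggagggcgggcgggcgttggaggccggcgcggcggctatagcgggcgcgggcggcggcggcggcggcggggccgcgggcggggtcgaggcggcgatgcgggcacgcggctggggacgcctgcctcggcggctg
Jag1: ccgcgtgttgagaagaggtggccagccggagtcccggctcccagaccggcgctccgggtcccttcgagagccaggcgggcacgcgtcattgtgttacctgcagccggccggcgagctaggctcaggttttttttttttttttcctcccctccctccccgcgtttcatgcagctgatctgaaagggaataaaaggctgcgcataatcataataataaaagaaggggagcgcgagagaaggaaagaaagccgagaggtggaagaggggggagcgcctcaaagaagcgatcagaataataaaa
Lfng: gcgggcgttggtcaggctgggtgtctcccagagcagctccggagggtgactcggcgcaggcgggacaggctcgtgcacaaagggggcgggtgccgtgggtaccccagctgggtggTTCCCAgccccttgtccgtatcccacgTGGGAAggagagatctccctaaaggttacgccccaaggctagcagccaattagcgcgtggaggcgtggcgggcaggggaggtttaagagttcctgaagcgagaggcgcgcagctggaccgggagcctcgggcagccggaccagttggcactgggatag

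The Jag2 window was 86.0% G or C with 63 CpG dinucleotides, the Jag1 window 55.7% with 22, and the Lfng window 66.7% with 22. Across all 32851 windows of the table the median was 52.7% G or C with 7 CpG, and 9 of the 10 member windows lay above that GC median. The lowest among the members was the upstream window of Maml2, at 48.0% G or C with 2 CpG. The core TGGGAA, searched on both strands, occurred in 2 of the 10 member windows and in 25.6% of all windows. Lfng held it at 2 places, 108 bases before the start on the gene's strand and 135 bases before the start on the other strand, and the downstream window of Maml2 held it at 1 place. The Lfng copy nearest to the start was preceded by G, giving GTGGGAA, which 6.38% of all windows held. The TGGGAA of that copy overlapped by 2 bases the palindrome CACGTG, a letter pattern of E-boxes bound by Hes and Hey type factors. This palindrome was found in 1 of the 10 member windows and in 7.15% of all windows. These matches describe letters only.

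The direction of the fold changes was set first. Bmi1 had a log2 fold change of 5.42 (SE 0.10) in the authors' deposited table, where its mean was 8.09 log2 CPM. The table states no sign, and a positive value was therefore read as higher in KrTB+DOX, the group meant to express the construct. Bmi1 thus fixes the sign and cannot also check which group is which. The tongue keratins Krt13 and Krt4, which define its suprabasal layers, were abundant in the authors' deposited table, with means of 13.98 and 13.88 log2 CPM. Muscle and vessel RNA was present too, with means of 13.56 log2 CPM for the fast myosin Myh4, 9.01 for the pericyte gene Rgs5 and 7.11 for the endothelial gene Pecam1. Levels and changes of Notch genes are sums over these cell types, and in such bulk samples fewer cells of a type and less RNA per cell cannot be told apart. No values per library were analysed here. Depth and the spread between mice are therefore seen only through the standard error (SE) of each fold change, computed as the fold change divided by the moderated t of limma, the authors' linear model.

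The Notch members had small fold changes, and 0 of 10 were called. The call was an adjusted p under 0.05 by limma's moderated test, with Benjamini-Hochberg adjustment over all genes, as given in the authors' deposited table, and 8.13% of all genes passed it. At an unadjusted p under 0.05 the count was 1 of 10, Jag2, against 25.2% of all genes. Of the members 5 lay above and 5 below 0, with a median log2 fold change of 0.00 against -0.01 over all genes. The median size of the change, regardless of sign, was 0.08 among the members and 0.16 among all genes. The 95% intervals are each for 1 gene, over the RNA of all cell types together, and do not bound a change within 1 cell type. They reached down to -0.41 on the log2 scale, for Jag1, and up to 0.55, for Hey1. Thus no interval held a 1.5-fold change in either direction, the outermost bounds being a 1.33-fold decrease and a 1.46-fold increase.

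**Figure D1:**
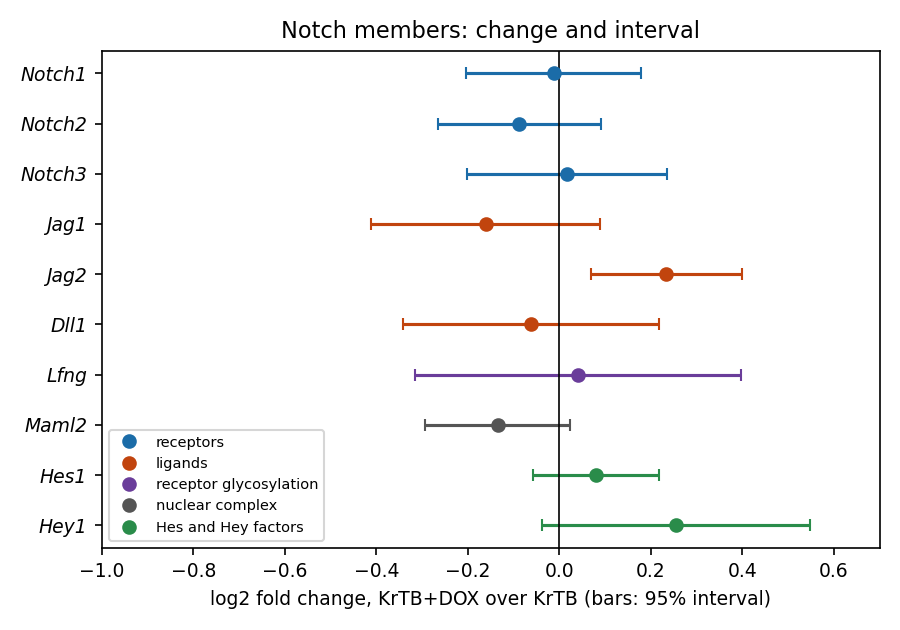
Log2 fold change of each of the 10 Notch members, KrTB+DOX over KrTB (x axis), by role; points are the authors' deposited estimates, bars are 95% intervals computed from the deposited t and 9.76 degrees of freedom. 9 of the 10 intervals hold 0, and the interval of Jag2 runs from 0.07 to 0.40.

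The receptors had estimates close to 0, those of Notch1 and Notch3 being the smallest in size among the members. Notch1, the receptor best known for keratinocyte differentiation, lies on chromosome 2 from 26457903 to 26516663 (GRCm38, GENCODE M21, minus strand) and averaged 7.09 log2 CPM. Its log2 fold change was -0.01 (SE 0.09, 95% interval -0.20 to 0.18, limma adjusted p = 0.946) in the authors' deposited table. Only 4.61% of all genes had a change of smaller size. Notch3, a receptor known above all from the smooth muscle and pericytes of vessels, lies on chromosome 17 from 32120820 to 32166852 on the minus strand. It averaged 7.22 log2 CPM and had a log2 fold change of 0.02 (SE 0.10, interval -0.20 to 0.24, limma adjusted p = 0.939) in the authors' deposited table. Notch2, on chromosome 3 from 98013527 to 98150361 (plus strand), averaged 6.76 log2 CPM with a log2 fold change of -0.09 (SE 0.08, interval -0.27 to 0.09, limma adjusted p = 0.525) in the authors' deposited table. None of the 3 receptor intervals reached a change of 0.3 on the log2 scale in either direction. All were well expressed: 89.6% of genes had a lower mean than Notch2 and 93.5% a lower mean than Notch3.

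The ligands Jag2 and Jag1 pointed in opposite directions, without a call for either. Jag2, on chromosome 12 from 112907819 to 112929776 (minus strand), had a log2 fold change of 0.23 (SE 0.07, interval 0.07 to 0.40), a 1.18-fold higher value in KrTB+DOX. Its unadjusted p of 0.0104 became a limma adjusted p of 0.0828 over all genes of that table. With the trend of fold changes on transcript GC content and length removed, Jag2 stood at 0.13 (recomputed adjusted p = 0.323). The longest Jag2 transcript is 61.9% G or C, against a median of 49.8% over the table. Jag1, on chromosome 2 from 137081456 to 137116644 (minus strand), is 48.8% G or C in its longest transcript and had a log2 fold change of -0.16 (SE 0.11, interval -0.41 to 0.09, limma adjusted p = 0.4) in the authors' deposited table. Estimates for Jag2 and Jag1 lay 0.39 apart on the log2 scale. That difference was not tested, since it needs values per library. Dll1, a Delta-like ligand on chromosome 17 from 15367354 to 15376872 (minus strand), averaged 4.03 log2 CPM with a log2 fold change of -0.06 (SE 0.12, interval -0.34 to 0.22) in the authors' deposited table. The noncoding gene A930024N18Rik overlaps Dll1 on the opposite strand, had a low mean of 0.10 log2 CPM and stood at -0.05 (SE 0.19); the library kit keeps strand, but no source used here gives the strand setting of the counting. Of the genes overlapping the other members in the annotation, 0 had a value in the table.

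Lfng encodes lunatic fringe, a Golgi enzyme that extends sugars on Notch and so shifts its preference between Delta-like and Jagged ligands. It lies on chromosome 5 from 140607320 to 140615545 (plus strand) and averaged 4.35 log2 CPM. Its log2 fold change was 0.04 with the highest SE of the members, 0.16 (interval -0.32 to 0.40, limma adjusted p = 0.903) in the authors' deposited table. Maml2, a Mastermind-like coactivator that joins the Notch and RBPJ complex on DNA, lies on chromosome 9 from 13297957 to 13709388 (plus strand). Its log2 fold change was -0.13 (SE 0.07, interval -0.29 to 0.02, limma adjusted p = 0.268) in the authors' deposited table, where it averaged 3.97 log2 CPM.

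The target genes Hes1 and Hey1, repressors whose transcripts serve as a readout of Notch activity in many tissues, both had estimates above 0 without passing. Hes1, on chromosome 16 from 30064384 to 30067796 (plus strand), averaged 5.54 log2 CPM and had the lowest SE of the members. Its log2 fold change was 0.08 (SE 0.06, interval -0.06 to 0.22, limma adjusted p = 0.453) in the authors' deposited table. Expressed as a fold, the Hes1 interval ran from 0.960 to 1.16. Hey1, on chromosome 3 from 8663359 to 8667256 (minus strand), had the largest estimate of the members, 0.25 (SE 0.13, interval -0.04 to 0.55, limma adjusted p = 0.256) in the authors' deposited table. It also had the lowest mean of the members, 3.65 log2 CPM.

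**Figure D2:**
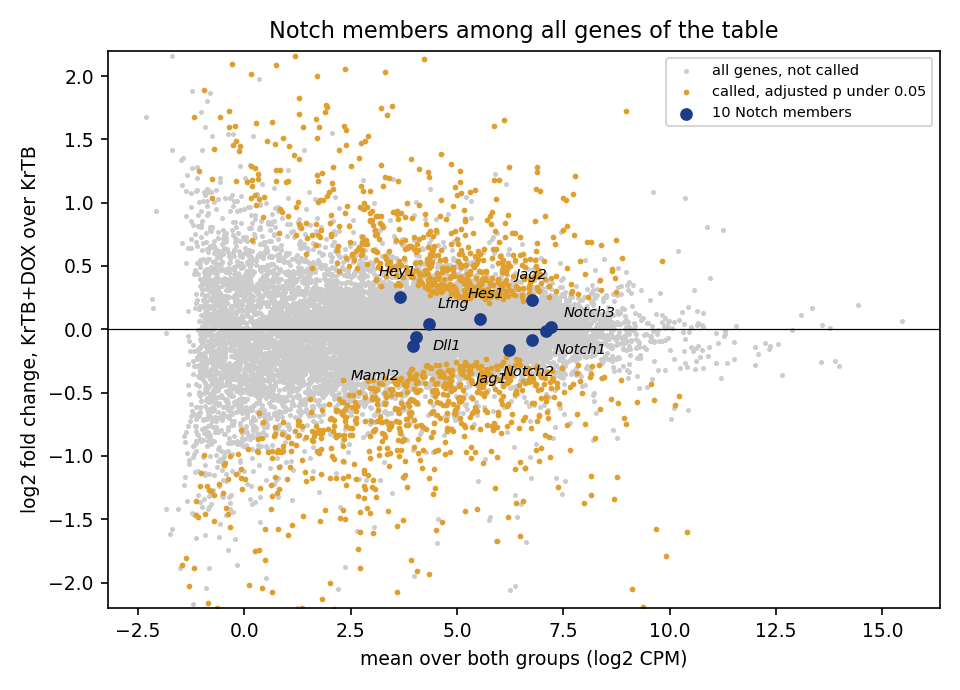
Log2 fold change, KrTB+DOX over KrTB (y axis), against the mean over both groups in log2 CPM (x axis) for all genes (grey), called genes (orange) and the 10 Notch members (blue). The members lie between -0.16 and 0.25, inside the grey band; 101 genes beyond 2.2 in size are outside the axis.

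Changes of the size of the wider bounds were called in other genes of like expression. Within 0.5 log2 CPM of each member's mean, between 7.89% and 8.80% of genes were called. The smallest called change in these windows was 0.21 on the log2 scale near the receptors, the Jagged ligands and Hes1. It was 0.27 near Dll1, Lfng and Maml2, and 0.31 near Hey1. A call depends on the SE of the gene, so these minima over many genes are not the changes at which the members would be called. Near Jag2, 3 genes with a smaller change than Jag2 were called. The members' SEs ran from 0.06 to 0.16, and 7 of 10 were below the table's median of 0.12, which covers genes of all means. Against the median SE of genes of like mean the members went both ways. Notch1, Notch3, Jag1, Dll1, Lfng and Hey1 had higher SEs, as with Lfng at 0.16 against 0.10. Notch2, Jag2, Maml2 and Hes1 had lower ones, as with Maml2 at 0.07 against 0.10.

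Levels were compared between genes per length of the longest annotated transcript, in CPM per kb over both groups. Hes1 was highest among the members at 31.7 CPM per kb, followed by Jag2 at 21.1, Notch3 at 18.6, Notch1 at 14.4, Jag1 at 13.3 and Notch2 at 10.3. Below these came Lfng at 8.85, Hey1 at 5.19, Dll1 at 4.55 and Maml2 at 2.45 CPM per kb. Among the Jagged and Delta-like ligands Jag2 was thus highest, 1.59 times Jag1 and 4.64 times Dll1 in CPM per kb. The spread of each level over the libraries was not analysed here, so which neighbours in this order differ beyond it is unknown. Among the relatives, Notch4 reached 3.55, Dll4 3.12, Rfng 9.42 and Mfng 2.61 CPM per kb, and Hes6 reached 8.50, Heyl 5.15, Hey2 0.818 and Hes2 0.50.

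**Figure D3:**
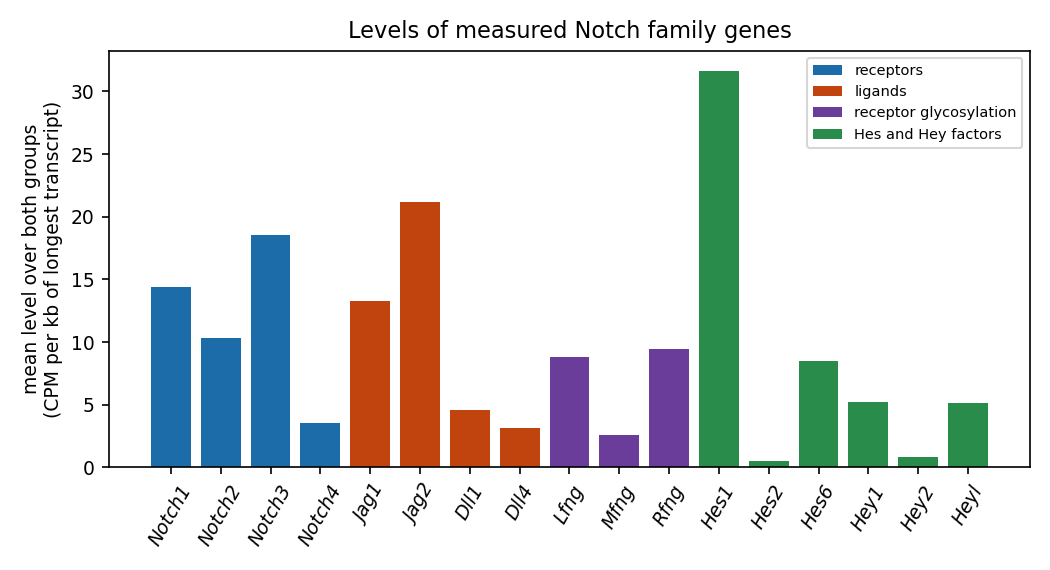
Mean level over both groups in CPM per kb of the longest GENCODE transcript (y axis) for 17 measured genes of the receptor, ligand, fringe and Hes or Hey families (x axis), coloured by role; bars are the authors' means with no error available per library. Hes1 stands highest at 31.7 and Jag2 at 21.1 CPM per kb, whereas Hes2 and Hey2 lie under 1.

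A wider list of Notch pathway genes, sorted by role, put the members in context. Of 81 further genes, 77 had a value, and 6 of these rose and 2 fell by limma's adjusted p, that is 10.4% called against 8.13% of all genes (3.82% called higher and 4.31% lower). Their median log2 fold change was 0.02, against -0.01 over all genes. At an unadjusted p under 0.05, 16 of the 77 passed, or 20.8%, against 25.2% of all genes. Dll3, Hes3, Hes5 and Hes7 had no value.

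Among receptors and their ligands outside the members, Notch4 passed. Notch4, a receptor known from endothelium, rose with a log2 fold change of 0.42 (SE 0.10, interval 0.19 to 0.65, limma adjusted p = 0.0377) in the authors' deposited table. Its call was lost with the GC and length trend removed (0.32, recomputed adjusted p = 0.0925) and against a 1.2-fold change (recomputed adjusted p = 0.783). Dll4, the Delta-like ligand of sprouting vessels, stood at 0.48 with an SE of 0.24 (limma adjusted p = 0.247) in the authors' deposited table. Among 11 endothelial markers 0 rose and 1 fell, the junction cadherin Cdh5 (log2 fold change -0.38, SE 0.10), with a list median of 0.03 and Pecam1 at 0.03 (SE 0.09) in the authors' deposited table. Cdh5 lost its call against a 1.2-fold change (recomputed adjusted p = 0.986), and the endothelial receptor Flt1 stood at 0.33 (SE 0.10, limma adjusted p = 0.0745).

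Fringe and receptor-processing genes each gave 1 riser. Rfng, the radical fringe enzyme, rose by a log2 fold change of 0.33 (SE 0.09, limma adjusted p = 0.0412), while Mfng stood at -0.09 (SE 0.17) and Pofut1, which adds the O-fucose that fringes extend, at -0.18 (SE 0.09) in the authors' deposited table. The Rfng call was also lost with the GC and length trend removed (0.27, recomputed adjusted p = 0.0875) and against a 1.2-fold change (recomputed adjusted p = 1). Furin, the protease that cuts Notch precursors among many other proteins, rose by 0.33 (SE 0.07, limma adjusted p = 0.0253) in the authors' deposited table, a call lost against a 1.2-fold change (recomputed adjusted p = 1). The other 9 of 10 cleavage genes did not pass, with the gamma-secretase subunit Aph1a at 0.15 (SE 0.07) and the sheddase Adam17 at -0.17 (SE 0.08). Ligand endocytosis genes held 0 calls among 6 by limma, also 0 at an unadjusted p under 0.05, with Epn2 at -0.12 (SE 0.07), Mib2 at 0.14 (SE 0.09) and Epn1 at 0.10 (SE 0.08).

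Turnover and nuclear complex genes held 0 calls. Of 10 turnover genes 0 were called by limma and 3 had an unadjusted p under 0.05: the ubiquitin ligase subunit Fbxw7, which targets the Notch intracellular part for destruction (log2 fold change -0.24, SE 0.08), and the Deltex genes Dtx2 (0.30, SE 0.12) and Dtx4 (-0.33, SE 0.13) in the authors' deposited table. Of 8 nuclear complex genes other than Maml2 0 were called and 1, Maml1 (0.15, SE 0.06), had an unadjusted p under 0.05, with the acetyltransferase Kat2b at -0.15 (SE 0.08). Rbpj, the DNA-binding partner of Notch, and Nrarp, a feedback inhibitor that Notch induces, were picked after their values were seen: they stood at -0.03 (SE 0.12) and -0.06 (SE 0.12) in the authors' deposited table. Among 14 corepressor genes 1 rose, the Groucho family member Tle3 (0.34, SE 0.07, limma adjusted p = 0.0235), a call lost against a 1.2-fold change (recomputed adjusted p = 1), and the corepressor Cir1 (-0.30, SE 0.09) missed the threshold in the authors' deposited table.

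Of 6 further Hes, Hey and related factors 0 rose and 1 fell, and the faller is better known from another system. Bhlhe41, a repressor of the circadian clock included as a relative, fell by 0.79 (SE 0.11, limma adjusted p = 0.00506) in the authors' deposited table. Heyl, close kin of Hey1, stood at -0.16 (SE 0.10, limma adjusted p = 0.379). Among 11 genes reported as Notch targets in other tissues 2 rose and 0 fell. These were Ccnd1, the cyclin D1 gene, which many growth pathways induce (log2 fold change 0.67, SE 0.10, limma adjusted p = 0.00464), and the progenitor factor Sox9 (2.72, SE 0.25, limma adjusted p = 0.001), while Klf4 stood at 0.28 (SE 0.18) in the authors' deposited table. Ccnd1 had a recomputed adjusted p of 0.0581 against a 1.2-fold change. Of the 11 estimates 10 lay above 0 and 1 below, with a median of 0.15. Over all genes 7588 lay above 0 and 7952 below. Nrarp, the 1 below, is also counted among the turnover genes.

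Non-canonical ligands, secreted or membrane proteins reported to bind Notch, had a median log2 fold change of -0.71 over 7 genes, of which 0 rose and 1 fell. That median includes the barely expressed Dner (-0.63, SE 0.43) and Cntn1 (-0.82, SE 0.52), with means of -0.72 and -0.95 log2 CPM. Egfl7, with a mean of 5.85 log2 CPM, stood at -0.04 (SE 0.08), and Dlk2, with a mean of 3.08, at 0.09 (SE 0.13). Mfap5, a microfibril protein reported to bind Jag1, fell by 0.93 (SE 0.18, limma adjusted p = 0.0168), and its relative Mfap2 stood at -0.71 (SE 0.23, limma adjusted p = 0.0849) and Dlk1 at -1.05 (SE 0.51) in the authors' deposited table. Mfap5 had a recomputed adjusted p of 0.102 against a 1.2-fold change. Of 8 fibroblast markers, a list that counts Mfap5 itself, 5 fell and 0 rose, with a median of -0.88. Besides Mfap5 the fallers were Col1a1 (-1.25), Col1a2 (-1.31), Col3a1 (-2.05) and Lum (-0.83). Not called were Dcn (-0.15, SE 0.14), Pdgfra (-0.44, SE 0.20) and Fbln1 (0.04, SE 0.21). The part of fibroblasts in the value of Mfap5 was not tested.

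**Figure D4:**
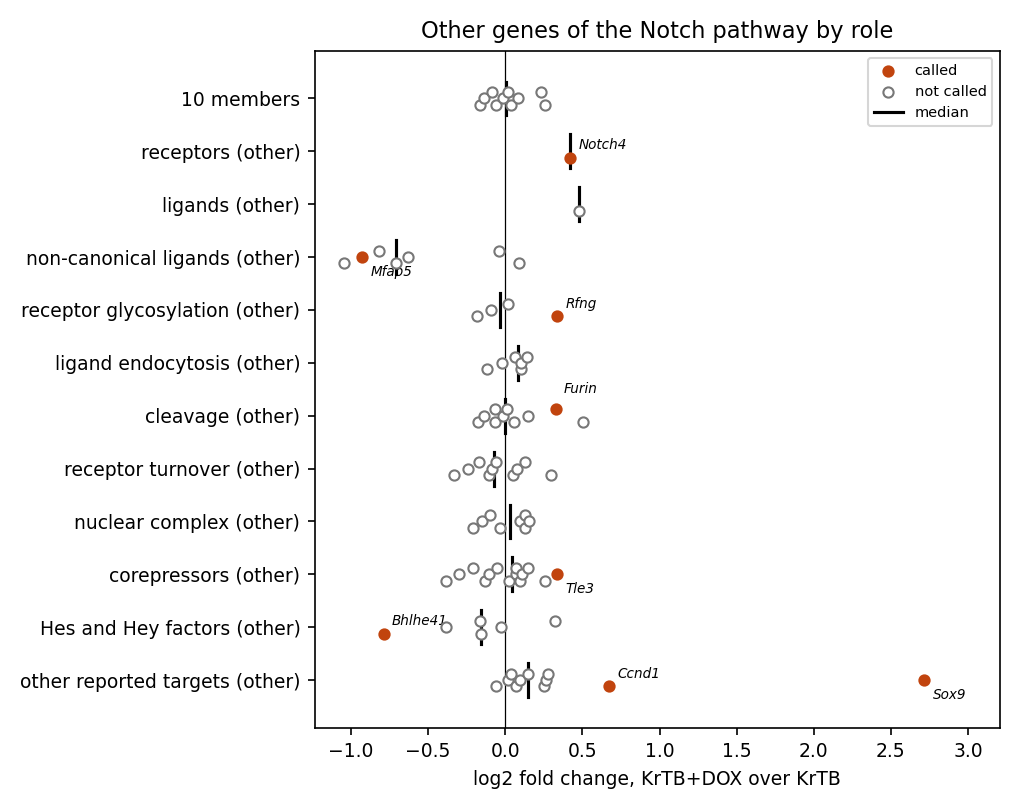
Log2 fold change, KrTB+DOX over KrTB (x axis), of the 10 members and of the other Notch pathway genes by role (y axis); filled circles are called genes, open circles are not called, and black lines are medians. The members spread around 0 with no filled circle, whereas Sox9 at 2.72 and Ccnd1 at 0.67 stand to the right and Mfap5 and Bhlhe41 to the left.

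Genes of the cell layers in which Notch acts were compared with the members. Of 7 basal keratinocyte markers 2 rose and 0 fell, with a median log2 fold change of 0.40. In the authors' deposited table Trp63, the basal factor known to oppose Notch in mouse and human keratinocytes, rose by 0.78 (SE 0.16, limma adjusted p = 0.0202). Krt15 rose by 0.54 (SE 0.14, limma adjusted p = 0.0452). Basal markers without a call were Krt14 (0.80, SE 0.28), Krt5 (0.40, SE 0.17), Itgb4 (0.15, SE 0.08), Col17a1 (0.13, SE 0.13) and Itga6 (-0.03, SE 0.09). Among 10 suprabasal markers 0 rose and 1 fell, the cornified envelope scaffold Evpl (-0.40, SE 0.08), with a list median of -0.27. The list was split, with 4 estimates above 0 and 6 below. Tgm1 stood at 0.47 (SE 0.14) and Tgm3 at -0.64 (SE 0.18), neither of them called. Trp63 (recomputed adjusted p = 0.148) and Evpl (recomputed adjusted p = 0.712) lost their calls against a 1.2-fold change. Of 9 genes listed as markers of mural cells, the vessel wall cells where Notch3 is known to act, 0 were called by limma, and the list median was -0.01. RNA of a listed gene can come from other cells of the tissue, muscle among them. An unadjusted p under 0.05, which 25.2% of all genes had, was found for 3 of the 9, all with estimates below 0: Pdgfrb (-0.24, SE 0.09), Cspg4 (-0.26, SE 0.08) and Abcc9 (-0.29, SE 0.12) in the authors' deposited table. Of 8 skeletal muscle markers 0 were called, all 8 estimates lay below 0, and 3 had an unadjusted p under 0.05. Of 6 taste bud markers with a value 2 rose, Krt18 (2.09, SE 0.25) and Krt8 (1.68, SE 0.44), and 1 fell, Prox1 (-0.52, SE 0.12). Whether shares of these cell types entered the values of the Notch members was not tested.

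**Figure D5:**
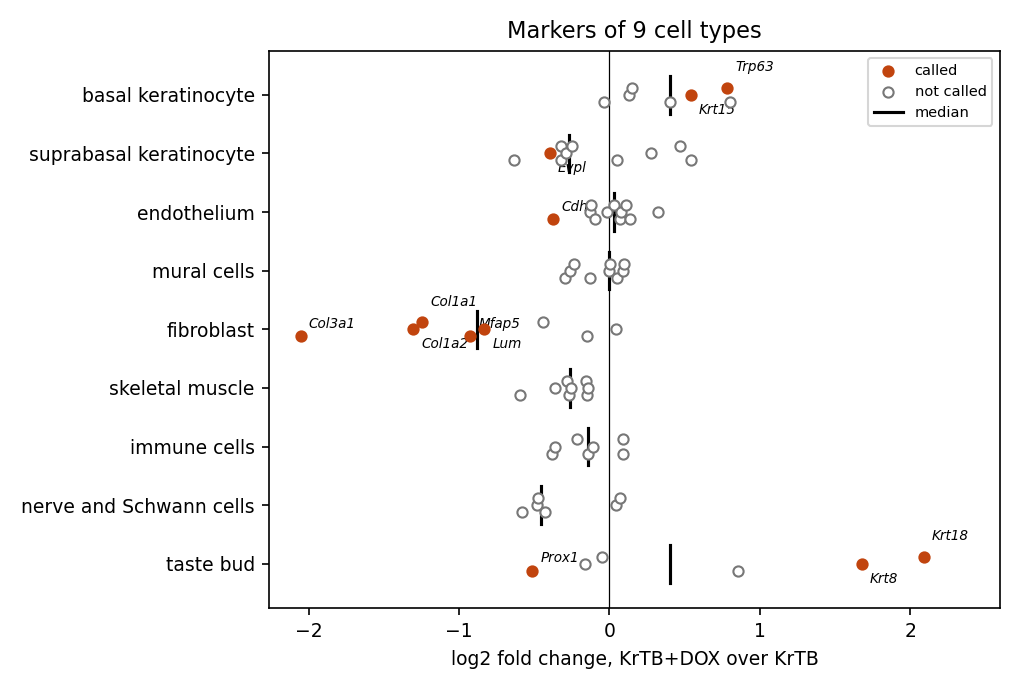
Log2 fold change, KrTB+DOX over KrTB (x axis), of markers of 9 cell types (y axis); filled circles are called genes, open circles are not called, and black lines are list medians. The medians are -0.88 for fibroblast markers, a list that counts Mfap5, 0.40 for basal keratinocyte markers, and 0.03 and -0.01 for endothelial and mural markers. They are -0.27 for suprabasal keratinocyte, -0.26 for skeletal muscle, -0.14 for immune, -0.45 for nerve and Schwann cell, and 0.41 for taste bud markers.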

How the data were processed

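Total RNA of tongue epithelium was made into stranded poly(A) libraries and sequenced in paired reads, per the labels' protocols. HTSeq 0.11.2, STAR 2.5.2b, cutadapt and bcl2fastq 2.20 are listed, with the build GRCm38 and without roles or settings, per the submitters' processing notes. The file used is the authors' comparison of 4 KrTB+DOX and 4 KrTB libraries, with 0 columns of values per library, so depth is unknown. Per the file headers it holds limma's columns: a log2 fold change and a mean on the log2 scale, deposited by the authors (2 raised to the mean sums to 985251, hence log2 CPM), and a moderated t score, p-value and adjusted p-value, also deposited by the authors. The limma version, design and low-count filter are given in no source used here. Where nothing says that libraries came from separate cages or litters, p-values measure only the spread between these libraries, which the series' design text calls biological replicates.

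SEs, 95% intervals (9.76 total degrees of freedom, recovered from t and p) and the alternatives, with p-values recomputed from the deposited fold changes and these SEs, were computed with scipy 1.17.1 over all 15540 genes and checked on simulated data; the GC and length trend used loess in R 4.3.3. Positions and transcript lengths came from GENCODE M21 (15085 symbols matched directly, 302 through a synonym, 153 unmatched). All members were named. In each pathway role the called genes were named, filled up to 3 by smallest p. One gene that this rule names is not reported here. The members, lists and tests were chosen with earlier results of these data known. Promoters came from RefSeq on GRCm38.p6.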

Additional observations from a re-analysis of the deposited data

How the results depend on the processing

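The 10 members were recomputed under 5 alternatives: a test against a 1.2-fold change, only genes averaging at least 1 log2 CPM, the median of all genes set to 0, the GC and length trend removed, and Holm adjustment. The count of members called was 0 under each. The 1.2-fold test and Holm adjustment are stricter than the reported test, so neither could add a call. Only the median and trend settings alter the fold changes, so no direction could change under the other settings. Of the 50 values 48 kept their direction and their side of the threshold, and 2 small estimates changed sign with the GC and length trend removed, Notch3 at -0.066 and Lfng at -0.021, as did Epn1 at -0.0032 in the wider list; the cause was not tested. The lowest adjusted p of any member was 0.0764, for Jag2 with the median set to 0. Of the 77 wider pathway genes, 2 were called against a 1.2-fold change and 1 with Holm adjustment, against 8 as reported. Both settings are stricter by construction, and over all genes they left 222 and 34 calls out of 1263. Sox9 was called under both (recomputed adjusted p = 0.00159 and 0.0156), and Bhlhe41 against a 1.2-fold change (recomputed adjusted p = 0.0423). With the GC and length trend removed 6 of the 77 were called, without Notch4 and Rfng, and 1159 of all genes. No paired analysis was possible because the labels give no numbers shared by the groups and the table has no values per library, and leaving out single libraries was not run for the same reason. Depth per library is unknown; the widest member intervals, for Lfng and Hey1, spanned 0.36 and 0.29 to either side on the log2 scale.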
